A study of Caenorhabditis elegans with 6 samples.

Results

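The core histone genes of C. elegans that are coupled to DNA replication were described here by histone type. They were taken as the genes with WormBase symbols his-1 to his-68, without the linker histone gene his-24 and without his-35. Of the 66 remaining symbols, 64 matched 1 of the 45461 genes in the count tables, and his-23 and his-36 had no annotated gene. There were 16 genes for H2A, 17 for H2B, 15 for H3 and 16 for H4. The family was chosen by its names and with earlier results of these data known, since all 10 genes called in the comparison of F2 offspring with control germlines were histone genes. The calls and fold changes of that comparison are therefore a description and support nothing by themselves, and the other comparisons share libraries with it.

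RNA was sequenced from 3 groups of 2 libraries, each made from distal gonad arms that were dissected from day 1 adult hermaphrodites grown at 24 °C and cut at the gonad bend. The F2 offspring germlines came from the progeny of “red-head” worms, and the “red-head” germlines came from F1 worms whose germ cells carry chromosomes of the sperm only. The “red-head” mothers were of strain HBR1281, with the insertion oxTi411 on chromosome III, in which the eft-3 promoter drives TdTomato::H2B, and with ddIs32, which expresses yfp::gpr-1 from a synthetic gene. The fathers were HBR1280 males. Excess GPR-1 pulls the maternal and paternal chromosomes apart in the first embryonic division. Control germlines came from HBR1280, with chromosomes of both parents. The labels give the germlines of all 3 groups the same genotype, that of HBR1280 with the insertion oxTi75, in which the eft-3 promoter drives GFP::H2B ahead of the tbb-2 3′UTR, beside unc-18(+). A transgene that encodes H2B was thus present in every group, and whether its reads were counted on an H2B gene is not stated. Each library pooled gonad arms of several worms. The study calls the 2 libraries of a group biological replicates, and the labels do not say whether they came from separate cultures. The p-values measure the spread between these libraries, which may be technical in part.

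Core histones form the nucleosome, with H2A and H2B as one dimer and H3 and H4 as the other. Their genes are transcribed mainly during DNA replication, and most of their mRNAs end in a hairpin that is bound by the stem-loop binding protein in place of a poly(A) tail. In C. elegans they lie in clusters, largely as divergent pairs of an H2A with an H2B gene or of an H3 with an H4 gene. The germ cells of the distal arm, which divide and pass through meiotic S phase, need histones for their own chromatin, and oocytes store them for the embryo. The libraries here were depleted of ribosomal RNA and not selected for poly(A), which keeps mRNAs with and without a tail.

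Counts on genes ranged from 2721055 in “red-head” replicate 2 to 11310273 in “red-head” replicate 1. The histone genes took 3.51% and 3.62% of these counts in F2 offspring, 3.002% and 3.03% for “red-head” and 3.02% and 2.92% in control libraries. All 64 genes passed edgeR's filter on low counts, with 8 to 28771 counts per gene and library, and 2 values were under 10 counts. The 8 germ cell and 4 oocyte marker genes had counts in every library. The germ cell markers summed to 3673 and 3867 CPM in F2 offspring, 2578 and 3619 CPM for “red-head” and 3405 and 3324 CPM in control libraries, lowest in “red-head” replicate 1. The 5 sperm markers summed to 4.93 and 2.88 CPM (counts per 1000000 counts on genes, scaled by edgeR's TMM factors) in F2 offspring, 1.66 and 3.34 CPM for “red-head” and 8.60 and 4.90 CPM in control libraries. The 5 intestine markers, mostly the yolk protein genes vit-2 and vit-6, summed to 646 and 113 CPM in F2 offspring, 2079 and 3591 CPM for “red-head” and 253 and 195 CPM in control libraries. The part of the germ cell and intestine differences in the results on “red-head” germlines was not tested.

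The 64 genes fell into 12 clusters of genes at most 20000 bases apart on WS220 chromosomes I (2 genes), II (13), IV (22), V (25) and X (2), numbered here in order along each chromosome (I-1, II-1, IV-1 to IV-4, V-1 to V-5 and X-1). Within the clusters, 58 genes formed 29 divergent pairs whose starts were 196 to 317 bases apart. Of these pairs, 15 joined an H2A with an H2B gene, 13 an H3 with an H4 gene, and 1, his-67 with his-68 on chromosome I, an H4 with an H2A gene. In 34 genes the exonic length given for WS220 equalled the coding length, so these gene models hold no untranslated region and reads there were not counted on them. Levels were compared between genes only per length, as RPKM (CPM divided by the exonic length in kilobases).

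Most histone reads came from chromosome IV. Its genes took 74.7% and 75.9% of the histone reads in F2 offspring, 81.8% and 86.4% for “red-head” and 94.4% and 94.3% in control libraries. The highest levels per kilobase were in clusters IV-3 and IV-4. For H2B, the dimer partner of H2A, his-66 had a mean of 6400 RPKM over the 6 libraries, his-48 had 5165 RPKM and his-58 had 4707 RPKM. For H3 the leading genes were his-55 (4379 RPKM), his-63 (3081 RPKM) and his-59 of cluster IV-1 (2695 RPKM). For H4 they were his-46 (4300 RPKM), his-56 (4082 RPKM) and his-64 (3683 RPKM), and for H2A his-65 (3752 RPKM), his-57 (3744 RPKM) and his-47 (2744 RPKM). The order within each type rests on lengths that include untranslated regions for some genes and not for others. The 25 genes of chromosome V had means of 7.51 to 179 RPKM, below every chromosome IV gene except his-32 (33.1 RPKM). The lowest level of all by exonic length was that of the H2B gene his-41 in cluster V-4. By coding length the H2B gene his-39 of cluster V-1 was lower (17.8 RPKM, against 21.1 RPKM for his-41). The coding length of his-39, 204 bases, is the shortest among the H2B genes. Chromosomes I and X held an intermediate and a low pair, his-67 (351 RPKM) with his-68 (415 RPKM) and his-38 (84.1 RPKM) with his-40 (86.5 RPKM). The chromosome II genes had means of 183.5 RPKM (his-42) to 1824 RPKM (his-44), which hide wide differences between groups. The group means of his-44 were 3536 RPKM in F2 offspring, 1781 RPKM for “red-head” and 156.9 RPKM in control libraries.

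**Figure D1:**
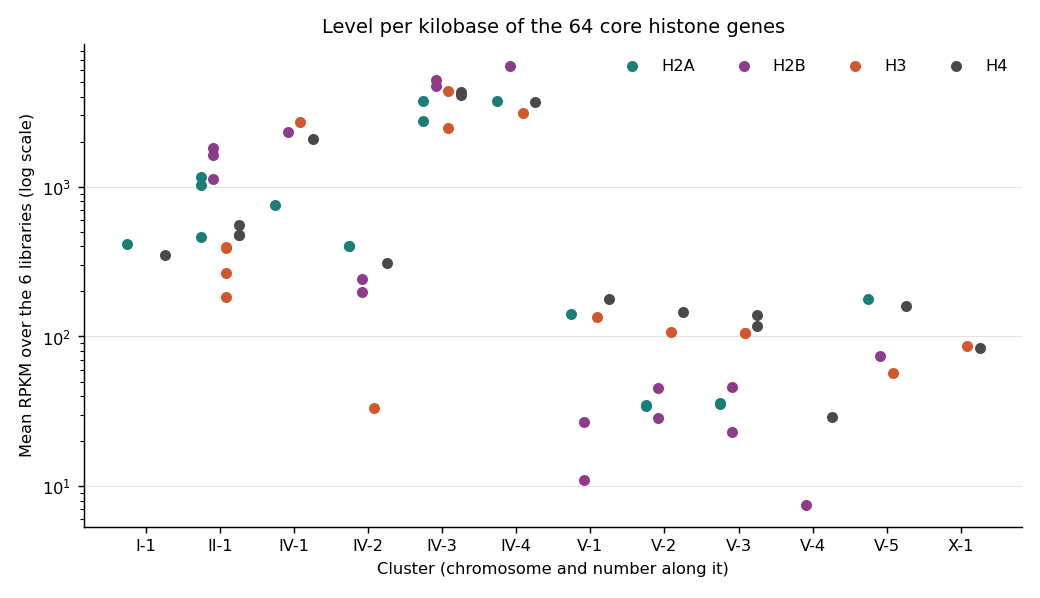
Level per kilobase of each of the 64 core histone genes (mean RPKM over the 6 libraries, log scale) by cluster, coloured by histone type. Clusters IV-1, IV-3 and IV-4 hold the highest levels, up to 6400 RPKM, apart from his-61 of cluster IV-1 (749 RPKM). The 25 chromosome V genes lie between 7.51 and 179 RPKM.

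Near-identical copies limit what a single gene's value means. The Ensembl annotation of WBcel235 gives 14 gene names to 36 of the genes, each name shared by 2 to 4 copies of 1 type. Reads that align to several copies are not listed in the count tables, and how they were assigned before counting is not stated. In 13 of the 14 copy groups the summed counts of the copies differed by at most 1.21 times. The H2B copies his-58 (cluster IV-3) and his-66 (IV-4) had 15875 and 15986 counts in F2 offspring replicate 1, and their counts differed by at most 1.06 times in every library. The H3 copies his-27 and his-49 both had 92 counts in “red-head” replicate 2. The exception was the H2B group of his-20, his-22, his-52 and his-54, whose summed counts differed by 2.09 times. Values of copies that share a name can therefore not be taken as independent of each other. Whether these near-equal counts come from like expression or from the sharing of reads cannot be told apart.

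The summed level of all core histone genes was 36320 and 38220 CPM in F2 offspring, 28210 and 30580 CPM for “red-head” and 30310 and 28490 CPM in control germlines. Both F2 offspring libraries were thus above all others, while “red-head” and control libraries overlapped. By type, the H2B sum was 12530 and 13970 CPM in F2 offspring, 9900 and 10660 CPM for “red-head” and 9934 and 8845 CPM in control germlines. The H3 sum was 8554 and 9474 CPM in F2 offspring, 7597 and 8521 CPM for “red-head” and 7409 and 7354 CPM in control germlines. The H2A and H2B sums of the F2 offspring lay above those of both other groups, and so did the H3 sums, whose lower F2 offspring value was close to the higher “red-head” one.

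The H2A sum was 8809 and 7881 CPM in F2 offspring, 5816 and 5656 CPM for “red-head” and 7243 and 5750 CPM in control germlines. The H4 sum was 6425 and 6895 CPM in F2 offspring, 4893 and 5741 CPM for “red-head” and 5721 and 6540 CPM in control germlines, so H4 in F2 offspring overlapped control. The log2 ratio of F2 offspring to control means was 0.36 for H2A, 0.50 for H2B, 0.29 for H3 and 0.12 for H4. The log2 ratio of “red-head” to control means was -0.18, 0.13, 0.13 and -0.21 in the same order of types. A lower sum in bulk RNA may come from fewer histone-expressing cells or from less RNA per cell, which cannot be told apart.

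The chromosome II cluster carried all of the difference between F2 offspring and control means in the H2A and H4 sums. It carried most of the difference in the H2B and H3 sums. Without its 13 genes the log2 ratios of F2 offspring to control were -0.03 for H2A, 0.05 for H2B, 0.11 for H3 and -0.10 for H4. The same ratios of “red-head” to control were -0.40 for H2A, -0.12 for H2B, 0.06 for H3 and -0.30 for H4. For H2A the sums without the cluster were 6651 and 5917 CPM in F2 offspring, 4790 and 4907 CPM for “red-head” and 7095 and 5704 CPM in control libraries. For H4 they were 5415 and 5922 CPM in F2 offspring, 4472 and 5407 CPM for “red-head” and 5646 and 6531 CPM in control libraries. Both “red-head” libraries were thus below all 4 others for H2A and, by a small margin, for H4, while H2B and H3 overlapped control. The H3 sums outside the cluster were 7339 and 8405 CPM in F2 offspring, 7056 and 8142 CPM for “red-head” and 7269 and 7291 CPM in control libraries. Both F2 offspring libraries thus stayed above control, replicate 1 by a small margin that rests on the TMM scaling. The cluster supplied 24.5% and 24.9% of the H2A reads, 27.96% and 27.8% of the H2B reads, 14.2% and 11.3% of the H3 reads and 15.7% and 14.1% of the H4 reads in the F2 offspring libraries. In control libraries it supplied at most 2.57% of the reads of any type.

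**Figure D2:**
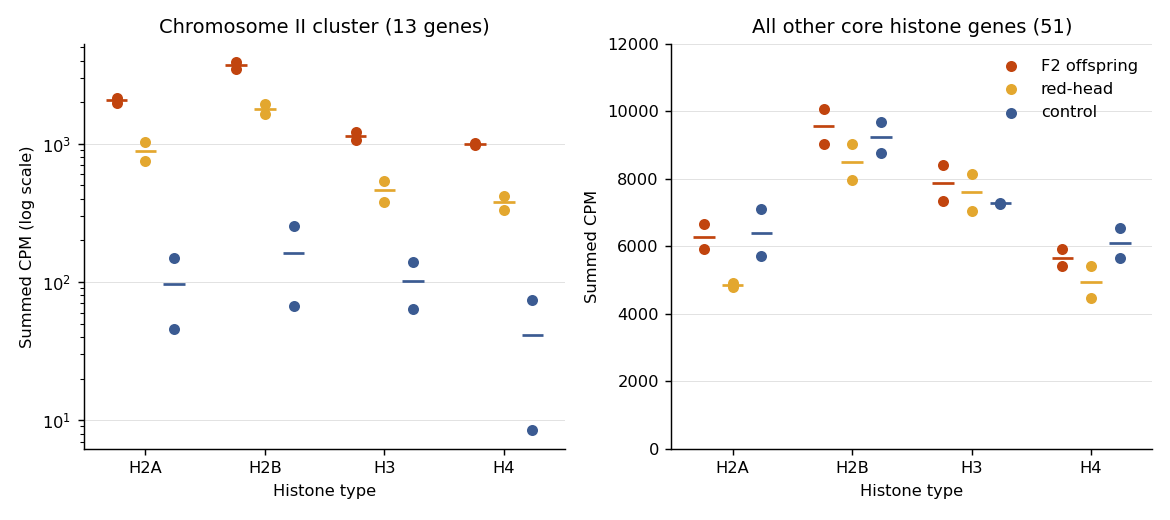
Summed CPM by histone type in F2 offspring, “red-head” and control libraries (points, with a line at the mean of 2 libraries), for the 13 genes of the chromosome II cluster on a log scale and for the other 51 genes on a linear scale. The groups do not overlap for any type in the cluster, and outside it H2A lies lower in both “red-head” libraries, at 4790 and 4907 CPM, than in all 4 others.

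The share of each type among the histone reads differed by a few percentage points between the groups. H4 took 17.7% and 18.04% in F2 offspring and 17.4% and 18.8% in “red-head” libraries, below the 18.9% and 22.96% in control libraries, by a small margin for control replicate 1. H3 took 26.9% and 27.9% in “red-head” libraries, above the 23.6% and 24.8% in F2 offspring and the 24.5% and 25.8% in control libraries. H2B took 34.5% and 36.6% in F2 offspring and 35.1% and 34.9% in “red-head” libraries, above the 32.8% and 31.1% in control libraries. H2A took 24.3% and 20.6% in F2 offspring, 20.6% and 18.5% for “red-head” and 23.9% and 20.2% in control libraries, and the H2A ranges of the groups overlapped.

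Gene by gene, 10 histone genes were called higher and 0 lower in F2 offspring against control by edgeR (quasi-likelihood test, Benjamini-Hochberg adjusted p under 0.05 over the 8117 genes tested). Over all genes, 0.123% were called higher and 0% lower in that comparison. At an unadjusted p under 0.05, 15 histone genes were higher and 0 lower (0.813% and 0.48% of all genes), and DESeq2 called 15 higher and 0 lower (0.183% and 0.0114% of all genes). The genes called were his-3, his-11, his-12, his-13, his-15, his-16, his-25, his-42, his-43 and his-44. Among them his-11, his-15 and his-44, his-12 and his-43, and his-13 and his-25 are copies that share a name. Calls of such copies cannot be counted as separate. Those nearest the threshold were his-11 and his-15 inside it (adjusted p = 0.0488 each) and his-9 outside it (adjusted p = 0.0663). In “red-head” against control 0 histone genes were called in either direction, as were 0% of all genes higher and 0% lower, while 14 histone genes were higher and 6 lower at an unadjusted p under 0.05, against 3.79% and 3.86% of all genes. There DESeq2 called 9 histone genes higher and 1 lower, against 0.652% and 0.315% of all genes. In F2 offspring against “red-head” 1 histone gene, his-3, was called higher and 0 lower, against 0.0123% and 0% of all genes, with 17 higher and 1 lower at an unadjusted p under 0.05, against 6% and 4.16% of all genes. There DESeq2 called 3 histone genes higher and 0 lower, against 0.888% and 0.648% of all genes. The counts rested on single libraries: without F2 offspring replicate 2, 4 histone genes were called in F2 offspring against control. In “red-head” against control the count also moved without either control library or without “red-head” replicate 2, which leaves 1 library in a group compared. Without either F2 offspring library 4 were called there. The F2 offspring libraries enter that comparison through the filter on low counts, the scaling and the shared spread. Without replicates 1 and 2 of them, 8361 and 9225 genes were tested. Over all genes, 25 and 28 were called in “red-head” against control without F2 offspring replicates 1 and 2, so that most of those calls were of other genes. In F2 offspring against “red-head” 8 of the 69 genes called without “red-head” replicate 2 were histone genes, and histone genes called numbered 2 without either control library, and 0 without “red-head” replicate 1 or without either F2 offspring library.

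The ranges of the groups were also compared. Both F2 offspring libraries were above both control libraries in 21 of the 64 histone genes (16.4% of all genes tested) and below them in 3 (16.6% of all genes). Both “red-head” libraries were above both control libraries in 17 (18.4% of all genes) and below in 15 (19.6%). Both F2 offspring libraries were above both “red-head” libraries in 32 (20.4% of all genes) and below in 5 (17.5%). Outside the chromosome II cluster, F2 offspring were above control in 8 of 51 genes or 15.7%, near the share of all genes. There “red-head” libraries were below control in 15 of 51 genes or 29.4%, and F2 offspring were above “red-head” in 19 or 37.3%.

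**Figure D3:**
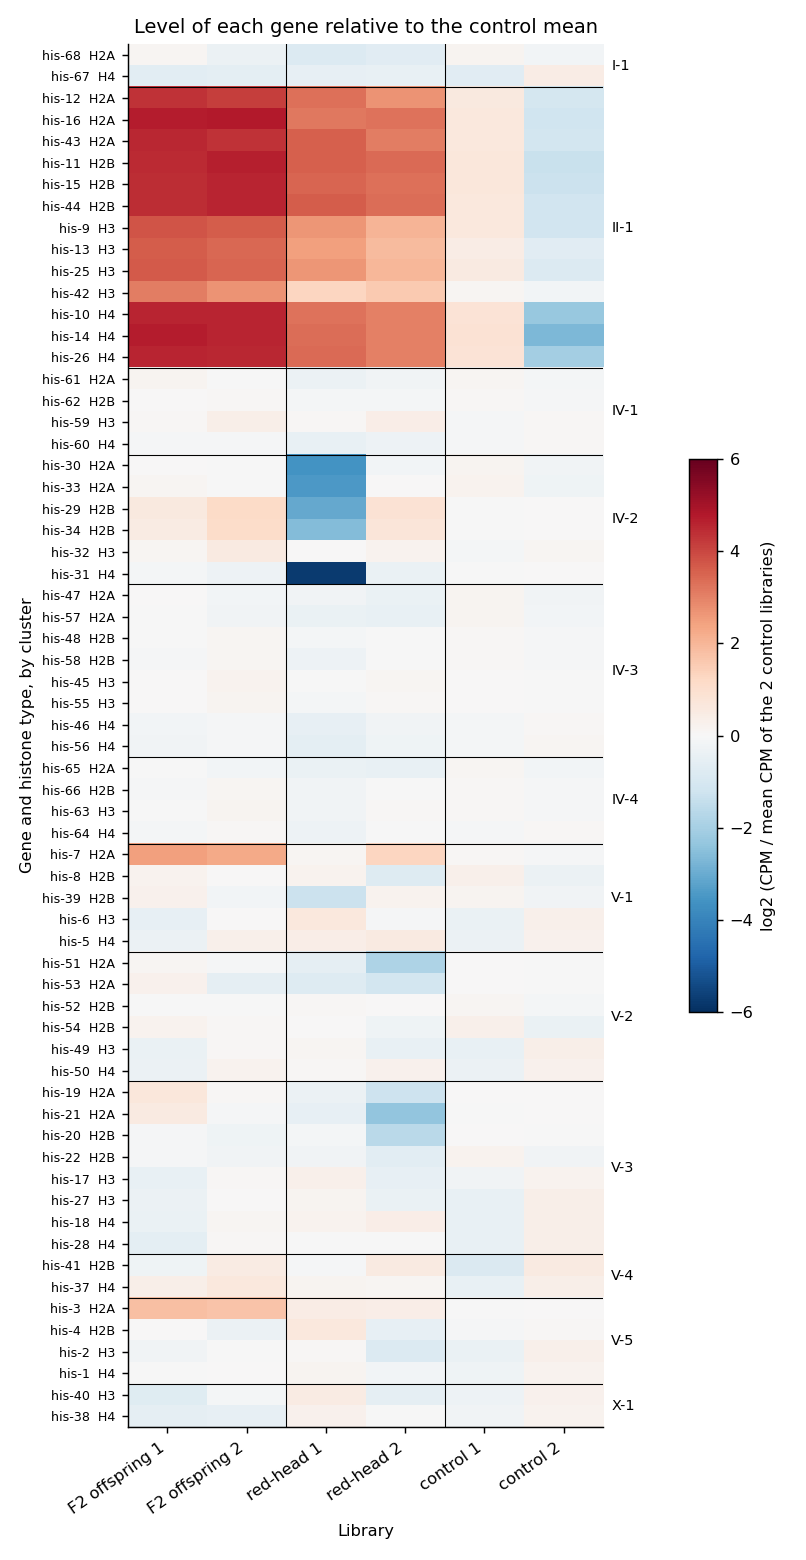
Level of each core histone gene in each library as log2 of its CPM over the mean of the 2 control libraries, by cluster and type, with F2 offspring, “red-head” and control libraries from left to right. The 13 genes of cluster II-1 and the H2A genes his-3 and his-7 stand out in F2 offspring, and 5 of the 6 genes of cluster IV-2 in “red-head” replicate 1.

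The chromosome II cluster (WS220 II, 13817690 to 13828628) holds 3 H2A, 3 H2B, 4 H3 and 3 H4 genes. For all 13 the F2 offspring libraries lay highest, the “red-head” libraries lay between, and the control libraries lay lowest, with no overlap. All but his-16 and his-42 belong to groups of copies, so the 13 genes cannot be counted as separate observations. These groups are his-12 and his-43, then his-10, his-14 and his-26, then his-11, his-15 and his-44, then his-9, his-13 and his-25. The 4 types did not differ from control by the same factor. The H3 genes, which encode the subunit that carries most of the studied methylation marks, had log2 fold changes of 2.89 to 3.65 in F2 offspring against control, below the 4.22 to 4.67 of the other 9 genes. In “red-head” against control the H3 genes had log2 fold changes of 1.41 to 2.37, and the others 2.995 to 3.48. These differences between types come from the comparison that chose the genes and from its control libraries, and were not tested.

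The lowest fold change was that of his-42 (13828218 to 13828628), an H3 gene at the end of the cluster that has no divergent partner and shares its name with no copy. It had 170 and 133 CPM in F2 offspring, 49.9 and 59.4 CPM for “red-head” and 22.3 and 18.2 CPM in control libraries. The 3 groups did not overlap, and the control libraries were closer to each other than for any other gene of the cluster. Its log2 fold change was 2.89 ± 0.18 (standard error) in F2 offspring against control (edgeR adjusted p = 0.0029), 1.41 ± 0.18 in “red-head” against control (adjusted p = 0.113) and 1.49 ± 0.17 in F2 offspring against “red-head” (adjusted p = 0.0506). The last of these passed the threshold with DESeq2, with no filter on low counts and without “red-head” replicate 2, and in no other alternative.

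The H4 gene his-14 (13819557 to 13819868), whose copies are his-10 and his-26, had 330 and 300 CPM in F2 offspring, 131 and 104 CPM for “red-head” and 23.5 and 1.96 CPM in control libraries. Control replicate 2 held 10 counts of it, so its control level is poorly known. Its divergent partner his-13 (H3, 13820141 to 13820551) had 346 and 312 CPM in F2 offspring, 153 and 104 CPM for “red-head” and 38.6 and 17.9 CPM in control libraries. Per kilobase, his-14 had 1056 and 963 RPKM in F2 offspring and 75.4 and 6.29 RPKM in control libraries, and his-13 had 841 and 759 RPKM in F2 offspring and 93.9 and 43.4 RPKM in control libraries, so that his-14 was above his-13 in both F2 offspring libraries and below it in both control libraries. The 3 H4 genes had log2 fold changes of 4.47 to 4.53 in F2 offspring with standard errors of 0.61 to 0.68. They were not called by edgeR, while his-13 was (edgeR adjusted p = 0.0246). DESeq2 called all 13 genes of the cluster in F2 offspring against control.

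**Figure D4:**
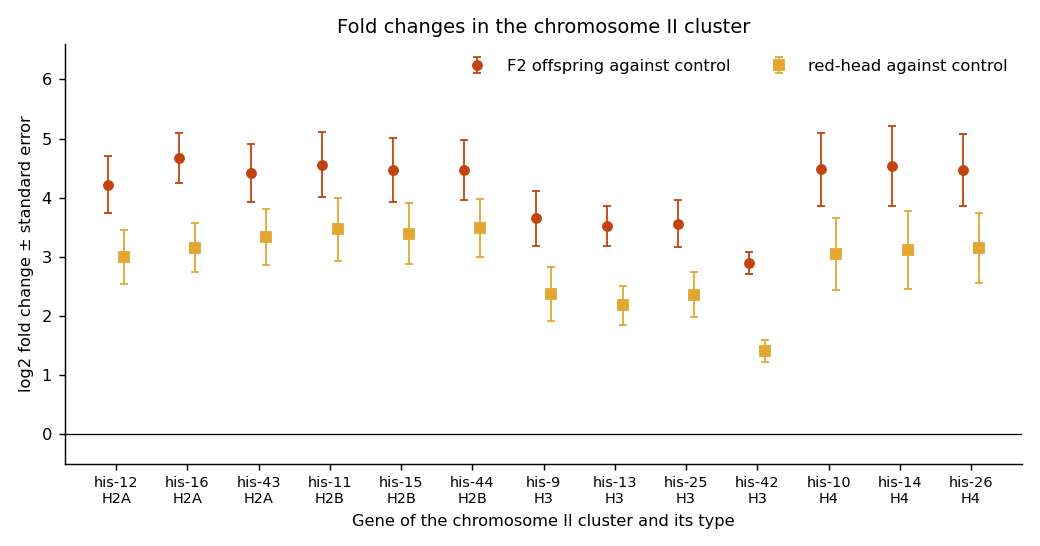
log2 fold change ± standard error from edgeR of the 13 genes of the chromosome II cluster in F2 offspring and in “red-head” germlines, each against the same 2 control libraries. The 4 H3 genes lie lowest in both comparisons, at 2.89 to 3.65 in F2 offspring and 1.41 to 2.37 in “red-head” germlines.

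The control libraries differed from each other in the sum of this cluster (617 and 184 CPM) by a larger factor than in that of any other cluster. H3 made up 22.7% of the cluster's reads in control replicate 1 and 34.4% in control replicate 2, against 15.4% and 13.5% in F2 offspring and 13.8% and 12.2% in “red-head” libraries. H4 made up 12.8% and 12.3% in F2 offspring, 10.7% and 10.8% in “red-head”, and 12.1% and 4.58% in control libraries. Of all 64 genes, 10 were lower by over 3-fold in control replicate 2 than in each of the other 5 libraries. The median log2 fold change of the 13 genes in F2 offspring against control was 4.46, and it was 5.67 without control replicate 1 and 3.73 without control replicate 2. The H2B genes his-11, his-15 and his-44 gave 44.4% and 49.2% of the cluster's reads in F2 offspring, 49.3% and 52.8% for “red-head” and 41.3% and 36.3% in control libraries.

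On chromosome V, 2 H2A genes were higher in F2 offspring than their neighbours. The gene his-3 (V, 16040774 to 16041171) had 131 and 123 CPM in F2 offspring, 49.8 and 48.3 CPM for “red-head” and 36.8 and 37.1 CPM in control libraries. It was called against control (log2 fold change 1.78 ± 0.11, edgeR adjusted p = 0.0029) and against “red-head” (1.37 ± 0.11, adjusted p = 0.035). The call against “red-head” was lost when either control library, either F2 offspring library or “red-head” replicate 1 was left out (adjusted p = 0.0514 to 0.161).

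The gene his-7 (V, 8533358 to 8533741), another H2A gene with no copy of the same name, had 112 and 99.5 CPM in F2 offspring, 22.5 and 50.9 CPM for “red-head” and 21.5 and 19.8 CPM in control libraries. Both F2 offspring libraries were above all others, and the “red-head” libraries were spread between control and F2 offspring. DESeq2 called his-7 higher in F2 offspring than in both other groups. With edgeR its log2 fold change was 2.36 ± 0.34 in F2 offspring against control (edgeR adjusted p = 0.110), larger than that of his-3 but not called. It was called without “red-head” replicate 1 (adjusted p = 0.00255) and without “red-head” replicate 2 (adjusted p = 0.00158).

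Both of these H2A genes have a divergent H2B partner that did not share the difference. The partner of his-3, his-4, had 35.5 and 27.6 CPM in F2 offspring, 55.4 and 24.9 CPM for “red-head” and 33.9 and 36.9 CPM in control libraries. The partner of his-7, his-8, had 11.7 and 10.4 CPM in F2 offspring, 11.7 and 5.94 CPM for “red-head” and 12.5 and 8.04 CPM in control libraries. The groups overlapped in both, with log2 fold changes of -0.16 and 0.10 in F2 offspring against control. The starts of his-7 and his-8 are 292 bases apart and those of his-3 and his-4 are 224 bases apart. Over all 29 divergent pairs, the partners' log2 fold changes in F2 offspring against control differed by a median of 0.22, and the largest difference, 2.25, was that of his-7 and his-8.

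Most of the remaining H2A genes had lower values in “red-head” libraries, without passing the test. Outside the chromosome II cluster and without his-3 and his-7, both “red-head” libraries were below both control libraries in 9 of 11 H2A genes and below both F2 offspring libraries in 10 of 11, against 19.6% and 20.4% of all genes. Of the 11 genes, 9 belong to 3 groups of copies (his-47, his-57 and his-65, then his-30 and his-33, then his-19, his-21, his-51 and his-53). These copies cannot be taken as independent of each other. Outside the cluster, “red-head” libraries were below control in 2 of 14 H2B genes, 0 of 11 H3 genes and 4 of 13 H4 genes. The median log2 fold change of these 11 H2A genes was -0.74 in “red-head” against control and -0.01 in F2 offspring against control. The value in “red-head” was -0.44 without “red-head” replicate 1 and -0.47 without “red-head” replicate 2. None of the 11 was called by edgeR, DESeq2 called his-68, and no test of the difference between types was run.

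The H2A genes of chromosome IV carried most of these reads. The gene his-57 had 1578 and 1407 CPM in F2 offspring, 1216 and 1184 CPM for “red-head” and 1805 and 1434 CPM in control libraries, a log2 fold change of -0.43 ± 0.15 in “red-head” against control (edgeR adjusted p = 0.526). Its copies his-47 and his-65 had log2 fold changes of -0.30 and -0.42, and his-61 of cluster IV-1 had -0.28. On chromosome I, his-68 had 277 and 196 CPM in F2 offspring, 144 and 159 CPM for “red-head” and 280 and 224 CPM in control libraries, a log2 fold change of -0.74 ± 0.18 (adjusted p = 0.363). The “red-head” libraries of his-68 lay below all 4 others. Its divergent H4 partner his-67 had 128 and 133 CPM in F2 offspring, 141.6 and 148 CPM for “red-head” and 124 and 276 CPM in control libraries, where the groups overlapped.

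The 4 H2A copies of clusters V-2 and V-3, his-19, his-21, his-51 and his-53, had log2 fold changes of -0.67 to -1.02 in “red-head” against control. They rest on 8 to 20 counts each in “red-head” replicate 2, the library with the fewest reads. Summed, the 4 copies had 80.8 and 56.1 CPM in F2 offspring, 42.9 and 20.8 CPM for “red-head” and 61.8 and 61.4 CPM in control libraries. The H2B partners of these 4 genes, his-20, his-22, his-52 and his-54, had log2 fold changes of -0.62 to 0.04.

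Cluster IV-2 stood apart in 1 library. Its 6 genes, his-29 to his-34, summed to 715 and 772 CPM in F2 offspring, 66.95 and 690 CPM for “red-head” and 693 and 594 CPM in control libraries. The H4 gene his-31 (IV, 8333659 to 8333992) had 126 and 112 CPM in F2 offspring, 2.58 and 104 CPM for “red-head” and 134 and 138 CPM in control libraries, so that “red-head” replicate 1, the deepest library, held 31 counts of it. The H2A copies his-30 and his-33 had 15.6 and 16.5 CPM in “red-head” replicate 1 and 150 to 211 CPM in the other 5 libraries. The H2B copies his-29 and his-34 had 8.31 and 9.80 CPM there and 58.4 to 155 CPM in the others.

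The H3 gene of the cluster, his-32, did not follow the other 5. It had 14.9 and 20.1 CPM in F2 offspring, 14.1 and 15.97 CPM for “red-head” and 12.8 and 14.9 CPM in control libraries. Its starts with his-31, its divergent partner, are 292 bases apart. Of all 64 genes, 5 were lower by over 3-fold in “red-head” replicate 1 than in each of the other 5 libraries, and all 5 were of this cluster. With both “red-head” libraries, the log2 fold change of his-31 in “red-head” against control was -1.57 ± 1.13 (edgeR adjusted p = 0.828), and without “red-head” replicate 1 it was -0.38 (adjusted p = 0.343). The H2B gene his-29 had 106 and 155 CPM in F2 offspring and 69.4 and 69.6 CPM in control libraries, a log2 fold change of 0.90 ± 0.90 (adjusted p = 0.999).

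**Figure D5:**
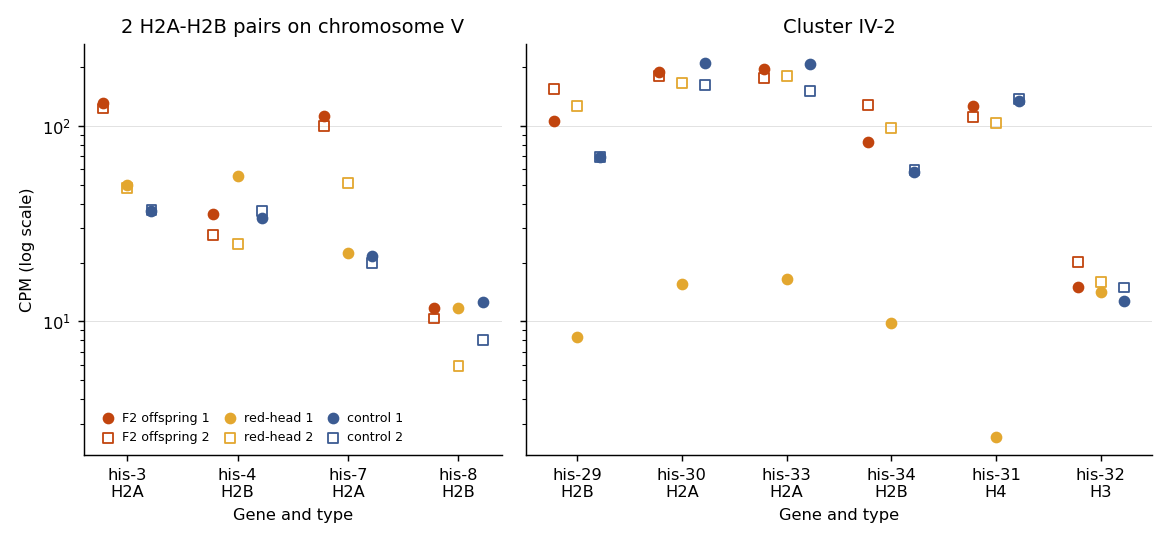
CPM on a log scale in each library (filled circles replicate 1, open squares replicate 2, F2 offspring, “red-head” and control from left to right within each gene) of 2 H2A genes of chromosome V with their divergent H2B partners and of the 6 genes of cluster IV-2. The H2A genes his-3 and his-7 lie highest in F2 offspring while his-4 and his-8 overlap, and 5 of the 6 cluster IV-2 genes are lowest in “red-head” replicate 1.

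The other genes of chromosomes IV and V are given by their sums. In clusters IV-1, IV-3 and IV-4, with 16 genes, the summed level was 26430 and 28240 CPM in F2 offspring, 23000 and 25720 CPM for “red-head” and 27900 and 26280 CPM in control libraries. The H3 gene his-59 had the largest fold change among the H3 genes with high levels there, with 1886 and 2264 CPM in F2 offspring, 1874 and 2396 CPM for “red-head” and 1728 and 1867 CPM in control libraries (log2 fold change 0.21 ± 0.17 in F2 offspring, adjusted p = 0.999). Chromosome V without his-3 and his-7 summed to 599 and 706 CPM in F2 offspring, 769 and 604 CPM for “red-head” and 575 and 792 CPM in control libraries, and the groups overlapped. There the genes with the largest difference of their type in F2 offspring against control, beside his-7, were the H3 gene his-6 (-0.22), the H4 gene his-37 (0.49) and the H2B gene his-41 (0.18), and none was called.

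On the X chromosome, the H4 gene his-38 had 20.6 and 20.99 CPM in F2 offspring, 34.97 and 28.98 CPM for “red-head” and 25.3 and 33.7 CPM in control libraries. It was 1 of the 3 histone genes with both F2 offspring libraries below both control libraries (log2 fold change -0.50 ± 0.23, edgeR adjusted p = 0.999). The H3 gene his-40 had 23.0 and 35.4 CPM in F2 offspring, 52.7 and 26.4 CPM for “red-head” and 30.4 and 45.5 CPM in control libraries, and the groups overlapped.

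Genes that process, silence or chaperone histones were read from a list of 19. By edgeR 0 of them were called in any of the 3 comparisons in either direction, and 0, 0 and 3 had an unadjusted p under 0.05 in F2 offspring against control, “red-head” against control and F2 offspring against “red-head”. DESeq2 called 0, 0 and 2 in the same order. In F2 offspring against “red-head” 825 of all 8117 genes had an unadjusted p under 0.05, so that the 3 of 19 are no result about the list. The median log2 fold change of the list was 0.05, -0.03 and 0.01, beside 0.00, -0.01 and 0.01 over all genes tested. The stem-loop binding protein gene cdl-1 had 276 and 300 CPM in F2 offspring, 257 and 286 CPM for “red-head” and 263 and 276 CPM in control libraries, and these ranges overlapped.

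Of the 3 genes with an unadjusted p under 0.05, csr-1 encodes the Argonaute that acts in histone mRNA 3′ end formation. It had 1054 and 1011 CPM in F2 offspring, 686 and 766 CPM for “red-head” and 951 and 818 CPM in control libraries, a log2 fold change of 0.51 ± 0.13 in F2 offspring against “red-head” (adjusted p = 0.298). The chaperone gene nap-1, whose protein binds H2A with H2B, had 1292 and 1291 CPM in F2 offspring, 850 and 990 CPM for “red-head” and 1172 and 972 CPM in control libraries (0.49 ± 0.14, adjusted p = 0.353). The FACT subunit gene hmg-4 had 187 and 187 CPM in F2 offspring, 235.1 and 227 CPM for “red-head” and 191 and 226 CPM in control libraries (-0.31 ± 0.11, adjusted p = 0.406). None of the 3 passed the test.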

How the data were processed

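The authors aligned single-end reads of 50 bases to the WS220 transcriptome with TopHat2 and counted reads per gene with HTSeq. The 6 deposited tables, 1 per library, hold these whole-number counts, not normalized. Versions are not given in the sources used here. Rows that name no gene (10.7% to 15.2% of reads assigned to no feature and 1.59% to 2.15% ambiguous) were left out of library sizes and tests. The library kit does not mark strand, so reads of a gene and an overlapping antisense gene cannot be told apart. The table of the authors' own comparisons holds mean levels, fold changes and p-values and was not used.

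Counts were scaled by TMM and tested with edgeR 4.0.16 in R 4.3.3 (glmQLFit and glmQLFTest, filterByExpr, all 6 libraries in one fit, group as the only term), with Benjamini-Hochberg adjusted p over all 8117 genes and a threshold of 0.05. With 2 libraries a group, precision is limited, most of all in “red-head” replicate 2, which has the fewest reads. CPM and RPKM were computed from the same TMM-scaled counts, and errors printed after ± on log2 fold changes are standard errors computed as the size of the fold change over the square root of the F statistic. DESeq2 1.42.0 was an alternative, as were other scalings and filters, a replicate block and leaving out each library. Histone types were assigned to the symbols by hand from background knowledge. WS220 positions and exonic lengths come from the gene table that accompanies the study, of which only annotation was used. The gene his-40 was not in it and took its length and chromosome from RefSeq. Replicate numbers were not used as pairs in the main fit, and a check of them is given below.

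The genes, the lists of 19 pathway genes and of markers, and the tests were chosen with earlier results of these data known. The genes named one by one were those called in any comparison, all genes of chromosomes I, II and X and his-3, the 3 of each type with the highest mean RPKM, the 1 of each type on chromosomes IV and V with the largest change in F2 offspring against control, cdl-1, and pathway genes with an unadjusted p under 0.05. The divergent partners of named genes, the other genes of cluster IV-2 and the H2A genes lower in “red-head” libraries were named after their values were seen. Beside the marker lists given in the report, the 3 body muscle markers summed to 87.9 and 20.1 CPM in F2 offspring, 54.99 and 109.2 CPM for “red-head” and 62.8 and 33.7 CPM in control libraries, and the 3 hypodermis markers to 38.96 and 7.47, 10.4 and 29.4, and 14.9 and 6.86 CPM in the same order. Gene sequences were not used here.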

Additional observations from a re-analysis of the deposited data

Results flagged for a closer look

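The H2A gene his-3 differed between the 2 generations in the direct contrast of F2 offspring with “red-head” germlines, with a log2 fold change of 1.37 ± 0.11 (edgeR adjusted p = 0.035). Its log2 fold change against control was 1.78 in F2 offspring and 0.41 in “red-head” germlines.

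The H2A gene his-19 of cluster V-3 lay on opposite sides of control in the 2 generations, by a small margin in F2 offspring replicate 2. It had 22.5 and 14.95 CPM in F2 offspring, 11.1 and 5.94 CPM for “red-head” and 14.1 and 14.1 CPM in control libraries. Its log2 fold change in F2 offspring against “red-head” was 1.09 ± 0.39 (edgeR adjusted p = 0.420), so the difference did not pass the test. Against control, its log2 fold change in F2 offspring was 0.41 ± 0.38 (edgeR adjusted p = 0.999). It shares its name with 3 other copies, his-21, his-51 and his-53, whose F2 offspring and control libraries overlapped.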

How the results depend on the processing

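Of the numbers of histone genes called (10, 0 and 1 in F2 offspring against control, “red-head” against control and F2 offspring against “red-head”), the first stayed within 1.5 times of its value under DESeq2 (15), RLE size factors (10), the 4 libraries compared (8), at least 10 counts in every library (8) and the replicate block (12). It was 4 when scaled by library size only. With no filter on low counts the numbers were 18, 21 and 21, of 68, 355 and 383 genes called among 23478. With DESeq2 they were 10 in the second and 3 in the third comparison, and the third was also 3 with only the 4 libraries compared. When single libraries were left out, the numbers ranged from 4 to 14, from 0 to 12 and from 0 to 8. With the replicate block the second was 4 and the third 1. The correlation of deviations from group means between same-numbered libraries was -0.09 for control with “red-head” and 0.03 for “red-head” with F2 offspring. For control with F2 offspring it was 0.39, so these libraries shared part of their deviations by number. Why they did was not tested. The named genes had 1599 log2 fold changes under these alternatives. Of these, 1398 kept their direction and side of the threshold or moved by less than their edgeR standard error. Another 129 newly passed the threshold, 25 no longer passed it, 47 others moved, and 0 called values changed sign.

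The log2 ratios of the type sums moved by more than the spread between replicates in these cases. Scaled by library size only, H2A was 0.44 and H2B 0.26 in F2 offspring against “red-head”, and H3 was 0.21 in F2 offspring against control. Between libraries whose names share a tag, H2B was 0.34 and H3 was 0.21 in F2 offspring against control, from 1 library a group. Without the chromosome II cluster, an alternative chosen after seeing the data, F2 offspring against control gave -0.026 for H2A, 0.050 for H2B, 0.11 for H3 and -0.10 for H4. “Red-head” against control gave -0.40 for H2A and -0.12 for H2B, and F2 offspring against “red-head” gave 0.37 for H2A, 0.17 for H2B and 0.20 for H4. With each library left out, H2A in “red-head” against control ranged from -0.34 to -0.0034 (the value without control replicate 1), H3 in F2 offspring against control from 0.21 to 0.36, and H3 in “red-head” against control from 0.042 to 0.21. The cause of these shifts was not tested beyond the libraries named.

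Limits are set by near-identical copies, whose reads may have been shared, and by 2 libraries a group. The median log2 fold change of the 13 chromosome II genes in F2 offspring against control ranged from 3.73 to 5.67 over all alternatives. The alternatives that need sequences were not run: copies by unique windows of 50 or 36 bases, and the search for hairpins and promoter motifs.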
